A study of Homo sapiens with 2 samples.

Results

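The 5′ untranslated region (5′ UTR) peaks of a CRTC2 RNA immunoprecipitation are the rows of the deposited peak list that the authors' annotation places in a 5′ UTR, on a chromosome other than the mitochondrial one and at a width of at most 10000 bp. There were 3253 of them among 158595 peaks within the same limits, or 2.05% (95% exact Clopper-Pearson interval 1.98 to 2.12), and the whole list held 175546 peaks. The samples are RNA precipitated with CRTC2 (1 library) and input RNA, taken before precipitation (1 library). Both came from the established human liver cancer line HCCLM3, labelled wild type, and neither group has a replicate or a precipitation with a control antibody, so RNA held by CRTC2 and RNA carried along by the procedure cannot be told apart. A peak is counted for a gene below only where it overlaps the assigned gene, which held for 2673 peaks (82.2%, 80.8 to 83.5) in 1620 genes, 1612 of them protein-coding. The annotation assigns the nearest start site, which need not be that of the gene whose 5′ UTR is hit, and overlap does not settle this. Some assigned transcripts are non-coding, among them those of GTF2H2B, D2HGDH, CLTA, WASHC2C and MAX-AS1 below. In such cases the annotated 5′ UTR is that of another transcript.

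The 5′ UTR is the stretch of an mRNA between its cap and the start codon, which the scanning ribosome reads first. Its length, folding, upstream reading frames and modified bases are known to set how often the coding sequence is translated. N6-methyladenosine (m6A) is found mostly near stop codons and in long internal exons, and m6A in 5′ UTRs has been linked to initiation under stress. CRTC2 is known as a coactivator of the transcription factor CREB, and YTHDF2 as a cytoplasmic m6A reader; the series asks about joint condensates of the 2 proteins and the fate of m6A-modified mRNAs.

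Each peak carries the authors' fold, which divides the RIP signal at its summit by that of a control on a linear scale, with a −log10 p and −log10 q. The control is not named in the list and is taken here to be the input library. The number of RIP fragments at the summit and the local input level were solved from fold and p. The input level is scaled to the RIP library, so that 1 input fragment counts as 0.634, and a level below it is an average over a wider window. A fold of 4.28, for example, is 6 RIP fragments on 1 input fragment. Folds are followed in brackets by 95% exact Poisson intervals, which hold the input level fixed, and shares by Clopper-Pearson ones; both kinds cover only counting error. A peak is called below where its q is at most 0.05. With 1 library in each group no test between conditions was possible, and peaks are not replicates, so comparisons between classes of peaks are descriptions.

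Of the hepatocyte and liver cancer line markers looked for, 9 of 12 carried a peak of any class, among them ALB, AFP and APOB. APOA1, SERPINA1 and TTR had none. A peak was found in 1 of 6 blood and immune markers (ITGAM), 2 of 6 endothelial and stromal markers (PECAM1 and LUM) and 1 of 3 neuronal markers (SYT1).

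Most 5′ UTR peaks rested on few fragments, and a minority were called. The median summit held 3 RIP fragments on an input level of 0.634. Quartiles were 2 and 6 fragments, the maximum was 31, and 17.3% of peaks rested on 1 fragment. At least 5 fragments were found at 1166 of 3253 summits. The median fold was 1.94 (quartiles 1.77 and 2.55), against 1.86 over all peaks, and the highest was 11.1. Of the 3253 peaks, 92 were called (2.83%, 2.29 to 3.46), where 1.49% of all peaks within the limits were called. The share over all peaks includes intron peaks, 26.9% of the list, of which 0.310% were called. A fold of at least 4 was reached by 95 peaks (2.92%), where the share over all peaks was 1.7%. These 2 sets shared 65 peaks, and the other 30 peaks of fold at least 4 were not called.

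The called peaks lay mainly where the input was low. Their folds had a median of 4.72 and their fragments one of 5, and 69 of the 92 had an input level below 1 fragment. Of the 92, 41 rested on fewer than 5 fragments, and the smallest number was 3. At exactly 1 input fragment a peak needed 7 RIP fragments to be called, and 11 of 660 such 5′ UTR peaks were (1.67%, 0.835 to 2.96). Peaks of fold 4.90 at this level allowed 2 fragment numbers, of which the closest, 7, was taken.

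Called peaks were about as frequent in the 5′ UTR class as in the exon class. The share was 2.83% in 5′ UTRs against 2.83% (2.68 to 2.97) in exons. It was 0.903% (0.786 to 1.03) in 3′ UTRs and 1.499% (1.34 to 1.68) in promoter peaks that lie after the start site. The interval of the 5′ UTR share lay above those of the 3′ UTR and after-start promoter shares and around that of exons. The median fold was 1.94 in 5′ UTRs, against 1.98 in exons, 1.92 in 3′ UTRs and 1.85 in promoter peaks after the start, so the classes lay closer in their medians than in their upper tails. A fold of at least 4 was found in 2.92% of 5′ UTR peaks, against 3.20% of exon, 1.54% of 3′ UTR and 1.82% of after-start promoter peaks.

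**Figure D1:**
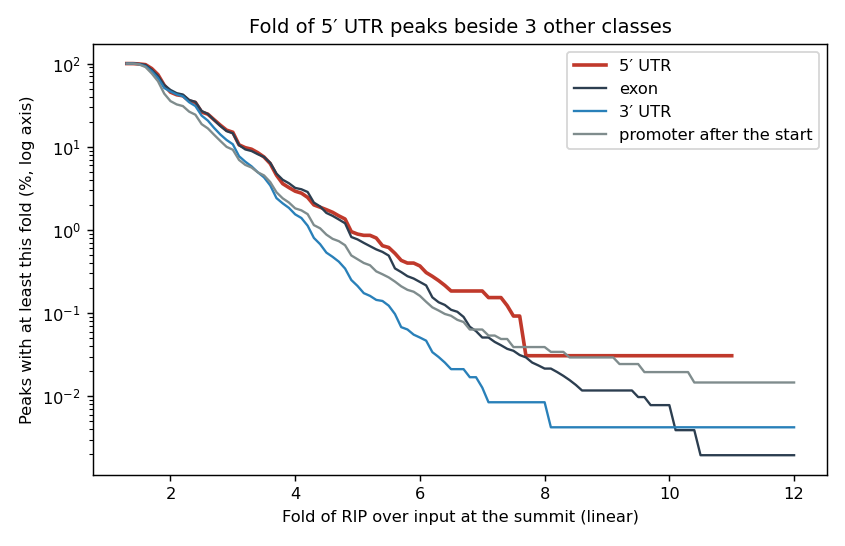
The share of peaks (vertical, log axis, in percent) that reach at least the fold on the horizontal axis (linear ratio of RIP over input), for 5′ UTR, exon, 3′ UTR and after-start promoter peaks. The 5′ UTR and exon curves run close together and stand at 2.92% and 3.20% at a fold of 4, where the 3′ UTR curve stands at 1.54%; the flat end of the 5′ UTR curve is 1 peak at 11.1. The axis ends at 12, and the highest exon, 3′ UTR and promoter peaks lie beyond it at 12.7, 19.4 and 29.1.

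The gap to 3′ UTR peaks was widest at low input levels. Where the input was below 1 fragment, 6.57% (5.14 to 8.24) of 1051 5′ UTR peaks were called, against 6.49% (6.09 to 6.91) of exon peaks, 1.03% (0.847 to 1.23) of 3′ UTR peaks and 1.73% (1.48 to 2.01) of after-start promoter peaks. At 1 to 3 input fragments the share in 5′ UTRs was 1.332% (0.804 to 2.07), against 1.95% (1.77 to 2.14) in exons, 0.982% (0.784 to 1.21) in 3′ UTRs and 1.63% (1.31 to 1.998) in after-start promoters. Here the interval of the 5′ UTR share overlapped those of the other 3 classes, although at exactly 1 input fragment the 5′ UTR share of 1.67% (0.835 to 2.96) stood against 0.415% (0.215 to 0.724) in 3′ UTRs. Above 3 input fragments 4 of 776 5′ UTR peaks were called (0.515%, 0.141 to 1.31), and the interval again overlapped the others. Input level and class moved together, and 32.3% of 5′ UTR peaks had an input level below 1 fragment against 27.7% of exon and 46.2% of 3′ UTR peaks. The part of the input level in the shares of whole classes was not tested further.

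**Figure D2:**
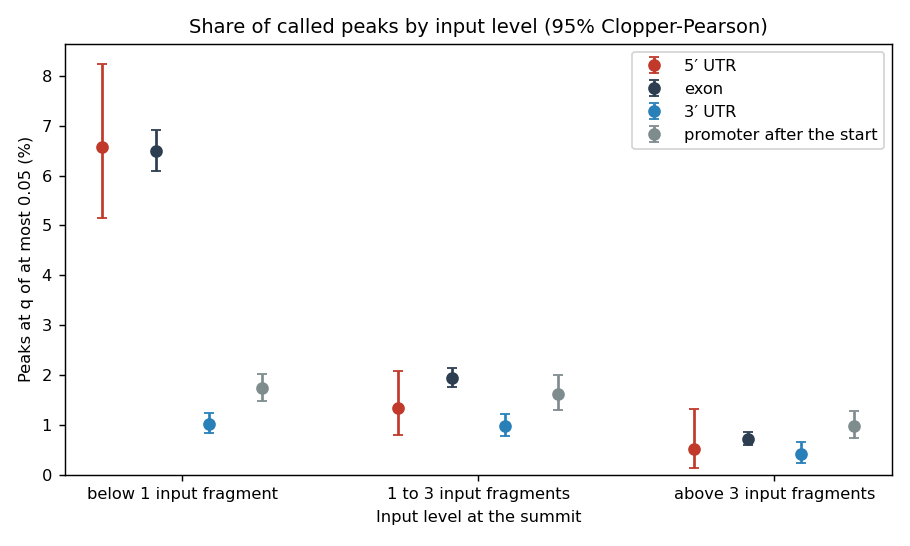
The percentage of peaks at q of at most 0.05 (vertical, from 0) in 3 ranges of the input level at the summit, for 4 peak classes, with 95% Clopper-Pearson intervals as bars. Below 1 input fragment the 5′ UTR and exon points stand at 6.57% and 6.49%, and the 3′ UTR and promoter points at 1.03% and 1.73%.

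Most called peaks were narrow, and a few were very wide. The median width of 5′ UTR peaks was 107 bp. The 1520 peaks of up to 100 bp held 40 of the called ones and the 1292 wider peaks of up to 300 bp held 36. The 270 peaks wider than 1000 bp had a median of 1 fragment and a median input level of 0.0393. Of these wide peaks 14 were called (5.19%, 2.86 to 8.55), on 3 to 7 fragments. The widest member measured 9999 bp and the narrowest one left out on a chromosome 10139 bp, each with a fold of 1.94 on 1 fragment.

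The assigned genes of highest fold come from several areas of cell biology. By the rule for named genes, 16 peaks on at least 5 fragments are described, since the last 2 tied. All 16 were called, which their choice by fold and fragments favours.

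The highest fold was found in ATAD3A, which encodes a mitochondrial membrane ATPase. Its peak (hg38 chromosome 1, 1516041 to 1516118) held 14 RIP fragments against an input level of 0.354, a fold of 11.1 (6.39 to 18.1). Of the 16 peaks it rested on the most fragments, and 1 of the gene's 7 exon peaks was called as well, at 10.01. An exon peak is counted here for the gene that the exon annotation names. ATAD3A has close paralogs, so the origin of these reads is uncertain.

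GTF2H2B, a copy of the gene for a TFIIH subunit, held 7 fragments against an input level of 0.0393 in a peak of 1622 bp (chromosome 5, 69565635 to 69567256), a fold of 7.70 (3.67 to 14.8). The near-identical copies of this gene make the origin of its reads uncertain too. Its assigned transcript is non-coding, so the 5′ UTR annotated here is that of another transcript. RNH1, the cytosolic ribonuclease inhibitor, held 7 fragments against an input level of 0.0452 in a peak of 1715 bp (chromosome 11, 500461 to 502175), a fold of 7.65 (3.65 to 14.8). Both peaks were wide and had an input level close to the lowest in the list, 0.0298.

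Signalling and growth genes followed. RICTOR, the defining subunit of mTOR complex 2, held 7 fragments against an input level of 0.236 (chromosome 5, 39002511 to 39002617), a fold of 6.47 (3.09 to 12.5). The gene had 5 further 5′ UTR peaks, with folds of 1.68 to 3.06 and none called, and 16 exon peaks with folds of 1.69 to 8.26, of which 1 was called. APC, the scaffold of the beta-catenin destruction complex, held 6 fragments against 0.118 (chromosome 5, 112780809 to 112780917), a fold of 6.26 (2.86 to 12.6). None of its 13 exon peaks was called, and their highest fold was 3.58. VGLL4, a cofactor that competes for TEAD transcription factors, held 6 fragments against 0.236 (chromosome 3, 11702948 to 11703021), a fold of 5.66 (2.59 to 11.4). Of its 3 exon peaks, with folds of 1.84 to 4.41, 1 was called. CAMK2D, a calcium/calmodulin-dependent kinase subunit, held 5 fragments against 0.118, a fold of 5.37 (2.35 to 11.3), at 209.7 kb after its start site.

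Metabolic and translation genes included PFKFB3, which makes the activator of phosphofructokinase. Its highest peak (chromosome 10, 6216141 to 6216215) held 9 fragments on 1 input fragment, a fold of 6.12 (3.13 to 11.1). The gene carried 6 5′ UTR peaks between 10.8 and 16.7 kb after the start site. The other 5 had folds of 2.08 to 3.68 on 8 to 22 fragments, and none of them was called. Of the gene's 5 exon peaks, with folds of 2.18 to 6.12, 1 was called. EIF4G3, a scaffold of the cap-binding complex, held 7 fragments against 0.314 (chromosome 1, 21050847 to 21050901), a fold of 6.09 (2.90 to 11.7). Its other 5′ UTR peak held 7 fragments too, but against an input level of 3.17, a fold of 1.92 (0.915 to 3.70).

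Among chromatin and transcription genes, ZMIZ1, a transcriptional coregulator, held 6 fragments against 0.0982 (chromosome 10, 79162085 to 79162146), a fold of 6.37 (2.92 to 12.8). KMT5B, a histone H4 lysine methyltransferase, held 6 against 0.157 (chromosome 11, 68180109 to 68180186), a fold of 6.05 (2.77 to 12.2). PRDM10, a zinc finger transcription factor, held 5 against 0.118, a fold of 5.37 (2.35 to 11.3). Exon peaks of ZMIZ1 (2 of 15) and PRDM10 (1 of 7) were also called, and none of the 5 of KMT5B was.

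Genes of membrane traffic, the cytoskeleton and glycosylation, and the locus LOC102724594, closed the list. SCFD1, a Sec1 family protein of transport between endoplasmic reticulum and Golgi, reached 5.67 (2.48 to 11.96). POMK, the kinase that acts on O-mannosyl glycans of dystroglycan, reached 5.60 (2.45 to 11.8). CAP2, a cyclase-associated protein that binds actin, reached 5.46 (2.39 to 11.5), and LOC102724594 5.52 (2.41 to 11.7). All 4 rested on 5 fragments. Called peaks assigned to LOC102724594 lay at 2 distant positions of chromosome 21, starting at 6493031 and 43104301. The peak of fold 5.52 was the one at 43104301. Which gene these reads came from is uncertain. The intervals of all 16 peaks overlapped, so no order among them holds beyond counting error.

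**Figure D3:**
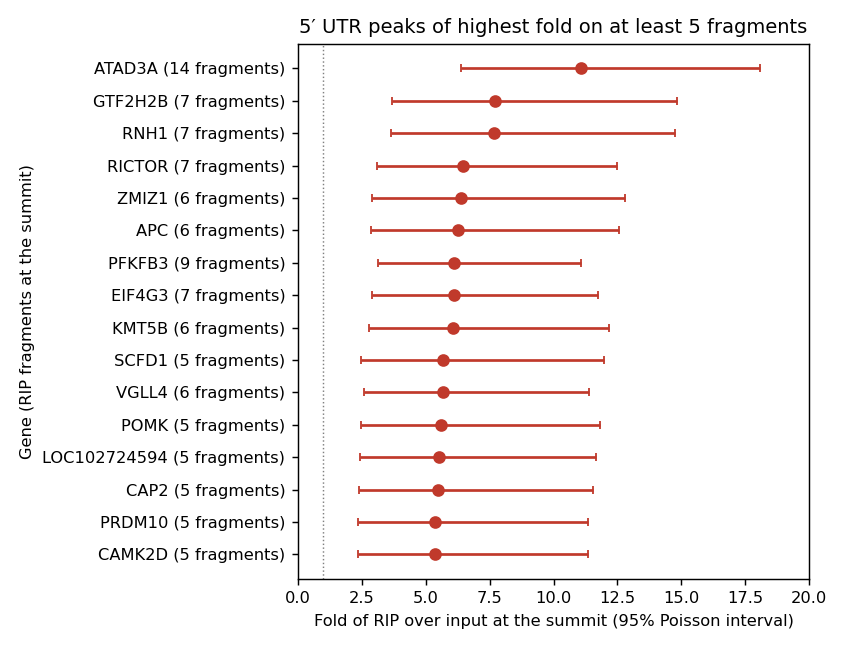
Fold of RIP over input (horizontal, linear) of the 16 5′ UTR peaks of highest fold on at least 5 fragments, with exact Poisson 95% intervals as bars and the RIP fragments in brackets; the dotted line marks a fold of 1. All intervals lie above 2 and overlap each other, and ATAD3A is highest at 11.1. The peaks were chosen for high fold and the intervals hold the input level fixed, so their position above 2 is no separate support.

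Ranked by q, 4 more genes entered the first 15. UBE3A, a ubiquitin ligase, and D2HGDH, a mitochondrial dehydrogenase of D-2-hydroxyglutarate, stood at 4.86 (2.03 to 10.9) on 4 fragments each against an input level of 0.0298, in peaks of 9187 and 5382 bp. GPALPP1 stood at 4.81 (2.01 to 10.8) on 4 fragments in a peak of 3424 bp. CALM2, which encodes the calcium sensor calmodulin, was of another kind. Its 41 bp peak (chromosome 2, 47170705 to 47170745) held 31 RIP fragments against an input level of 8.24, a fold of 3.46 (2.39 to 4.87).

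Deep summits had low folds. At least 20 RIP fragments were found at 44 5′ UTR peaks in 40 genes, with a median fold of 1.67 (1.37 to 3.46) at input levels of 5.70 to 18.4. CALM2 and the ATPase gene VCP (3.13 on 20 fragments) were the 2 called peaks among them. Others, chosen after their values were seen, were those of the clathrin light chain gene CLTA (1.71, 1.17 to 2.42, on 30 fragments), the UDP-glucose dehydrogenase gene UGDH (1.85, 1.26 to 2.63, on 29), the nucleolar protein gene NPM1 (1.55, 1.05 to 2.20, on 29) and the tubulin gene TUBA1C (1.66, 1.12 to 2.37, on 28).

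The 5′ UTR class reached far into the genes. The promoter class takes every peak up to 3000 bp from a start site, and the nearest 5′ UTR peak lay 3003 bp after its start site. The median distance was 13051 bp (quartiles 6564 and 25873) and the largest 295085 bp. The called share showed no clear course with distance. It was 2.36% (1.14 to 4.30) between 3 and 5 kb, 3.47% (2.21 to 5.16) between 5 and 10 kb, 2.59% (1.54 to 4.07) between 10 and 20 kb, 3.12% (1.94 to 4.73) between 20 and 50 kb and 3.64% (1.58 to 7.04) beyond 50 kb. The intervals of all 5 ranges overlapped. The highest folds of the ranges were 11.1, 7.70, 6.12, 6.26 and 6.47 in the same order.

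Most 5′ UTR peaks had an exon peak of their gene after them and few had one before, an order that the class definitions largely set. An exon peak of a coding transcript of the same gene lay farther from the start site for 2463 of 2673 5′ UTR peaks (92.1%) and nearer to it for 179 (6.70%). A called share of 2.23% (0.612 to 5.62) was found in those 179, against 3.05% (2.41 to 3.80) in the peaks with no such exon peak before them. Whether a position in the 5′ UTR of one transcript is coding in another was not analysed here.

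The number of 5′ UTR peaks in a gene was 1 for 1052 of 1620 genes. It was 2 or more for 568 genes, which held 1621 of the 2673 peaks, and 6 or more for 28 genes. The 5′ UTR peaks of a gene here and below need not lie in the 5′ UTR of a single transcript, which was not checked. SUCO, which encodes a SUN domain protein of the endoplasmic reticulum, had the most with 13, spread from 18.4 to 55.6 kb after the start site. Their folds ran from 1.67 to 4.28 with a median of 2.76 on 3 to 11 fragments, against a median of 2.24 over its 8 exon peaks. None of the 13 was called, and the 2 peaks at 4.28 held 6 fragments on 1 input fragment each.

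A tie for the next place brought in 6 genes with 9 5′ UTR peaks each. TP53BP1, a DNA double-strand break response protein, had folds of 1.72 to 4.90 (median 3.09, exon peaks 2.07) and 1 called peak, on 7 fragments at 23.1 kb. That fragment number was the closer of 2 that fitted. REV1, a translesion DNA polymerase, had folds of 1.72 to 4.64 (median 2.45, exon peaks 3.06). Its 2 called peaks lay at 40.5 and 47.5 kb on 4 fragments each, at 4.64 (1.94 to 10.4) and 4.47 (1.87 to 10.1). CEP250, a centrosome linker protein, had folds of 1.98 to 3.67 (median 3.06, exon peaks 2.45) and none called.

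The remaining 3 had no called 5′ UTR peak either. Medians were 1.92 for TTC3, a ubiquitin ligase (exon peaks 1.84), 1.92 for VPS8, a subunit of the endosomal tethering complex CORVET (exon peaks 2.15), and 2.16 for WASHC2C, a WASH complex subunit with a close paralog (exon peaks 2.21). The 5′ UTR median thus lay above the exon median in SUCO, CEP250, TP53BP1 and TTC3 and below it in REV1, VPS8 and WASHC2C.

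**Figure D4:**
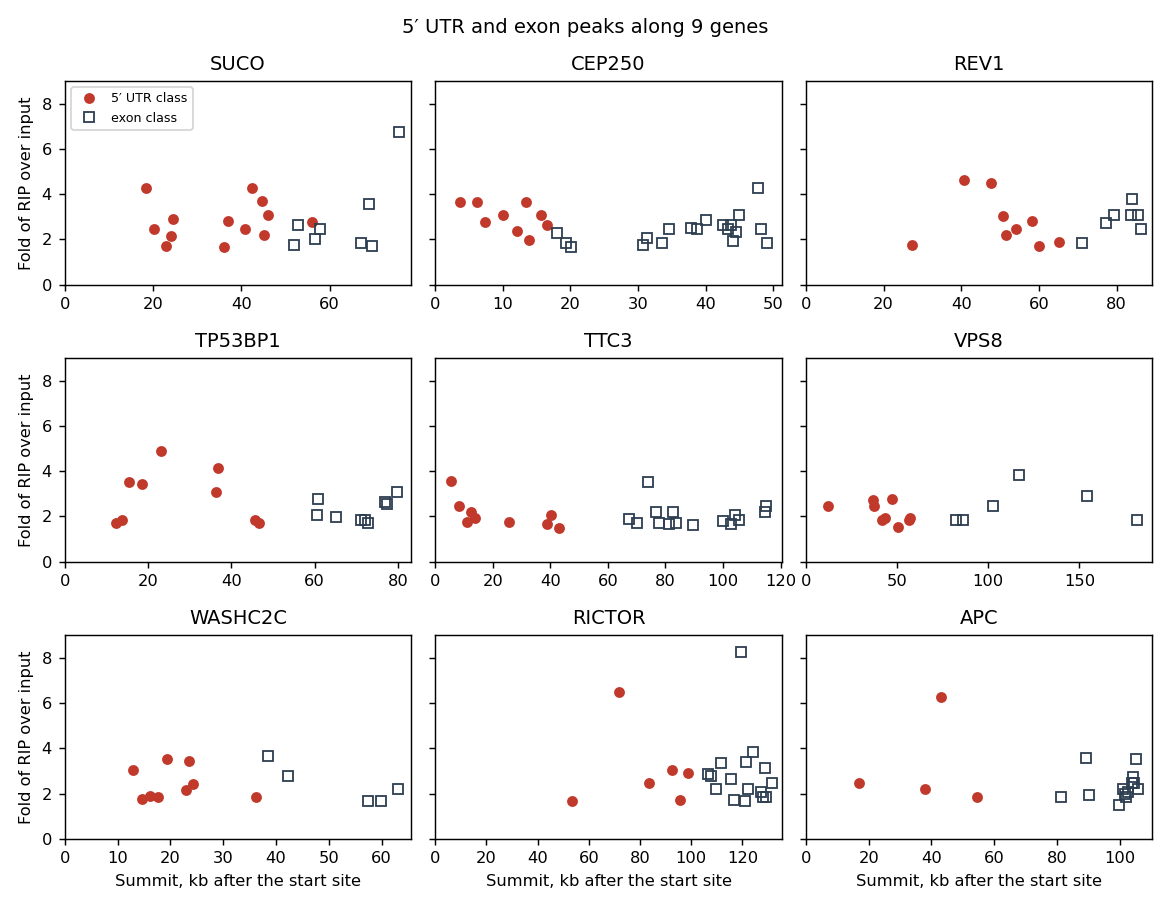
Fold of RIP over input (vertical, linear) against the distance of the summit from the start site (horizontal, kb) for 5′ UTR peaks (filled circles) and coding-transcript exon peaks (open squares) of the 7 genes with most 5′ UTR peaks, and of RICTOR and APC. The 5′ UTR peaks lie before the exon peaks except for 1 of the 13 in SUCO, and single points such as 6.47 in RICTOR and 6.26 in APC stand above their neighbours.

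Within genes, 5′ UTR and exon peaks had similar median folds, and the highest fold was more often found among the exon peaks. Exon peaks were found in 1493 of the 1620 genes, promoter peaks after the start in 1340 and 3′ UTR peaks in 598. The median over genes of the median fold was 1.98 for 5′ UTR peaks and 2.07 for exon peaks, and the within-gene difference (5′ UTR minus exon) had a median of 0 on the log2 scale (quartiles -0.25 and 0.27). The 5′ UTR median was higher in 721 genes, lower in 737 and equal in 35. By the highest fold the 5′ UTR was lower in 1039 genes and higher in 426, with a median difference of -0.36 on the log2 scale. These genes held a median of 1 5′ UTR peak against 4 exon peaks, and the highest of several values exceeds that of 1. In the 142 genes with 1 peak of each kind the median difference was -0.018, with 60 genes higher and 74 lower.

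**Figure D5:**
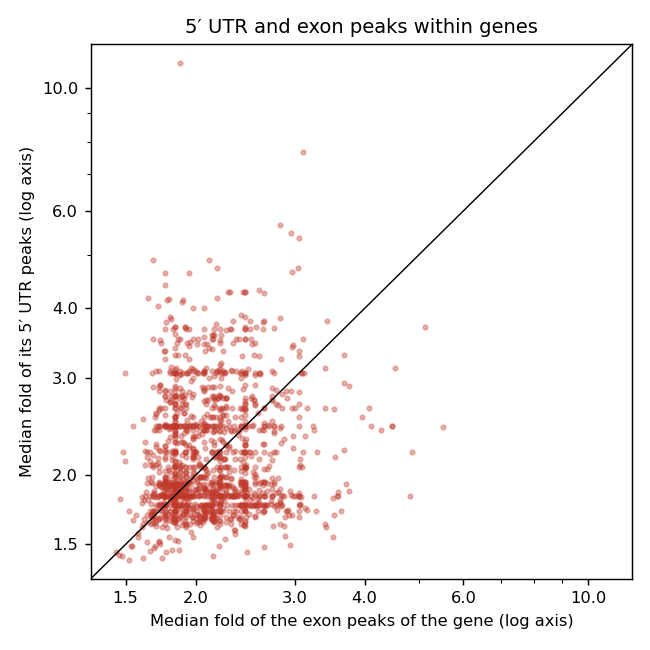
Median fold of the 5′ UTR peaks of a gene (vertical) against the median fold of its exon peaks (horizontal), both on log axes, for 1493 genes, with the line of equality. Points lie on both sides of the line, 721 above and 737 below, and the highest point is ATAD3A at 11.1 against 1.87.

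Genes known for regulation through the 5′ UTR had a 5′ UTR peak at shares near that of all genes, apart from the iron-responsive element genes with none, and 0 of them were called. A 5′ UTR peak in the assigned gene was found in 8.04% of 20056 protein-coding genes and a called one in 0.369%. Of 20 genes with upstream reading frames or translation under stress, 2 had a peak (10%) and 0 were called. EIF2AK3, the endoplasmic reticulum stress kinase PERK, and SLC7A1, an arginine transporter, stood at 2.78 (1.15 to 7.63) on 2 fragments each. Of 24 genes with a reported internal ribosome entry site 3 had a peak (12.5%) and 0 were called: the apoptosome gene APAF1 at 3.53 (1.68 to 6.80) on 7 fragments, SLC7A1, and the caspase inhibitor XIAP at 1.62 (0.937 to 2.65) on 14. None of 6 genes with an iron-responsive element, such as the ferritin genes FTH1 and FTL, had a 5′ UTR peak. Peaks up to 3000 bp from a start site belong to the promoter class. A 5′ UTR wholly within that distance could therefore give no 5′ UTR peak. These shares and absences thus do not tell whether such 5′ UTRs held signal.

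Neither CRTC2 nor YTHDF2 carried a peak of the 5′ UTR class, which leaves out positions up to 3000 bp from a start site. By the assigned gene there were 7 peaks of any class for CRTC2, 3 of them promoter peaks, and 24 for YTHDF2, 4 of them promoter peaks. Whether those promoter peaks lie in the 5′ UTRs of the 2 genes was not tested. By the exon annotation, which can name another gene than the assigned one, 6 exon peaks lay in CRTC2 and 4 in YTHDF2. Of 22 CREB and CRTC signalling genes, 3 had a 5′ UTR peak (13.6%) and 0 were called, where the shares over all protein-coding genes were 8.04% and 0.369%. CREM, a CREB family factor, stood at 3.53 (1.68 to 6.80) on 7 fragments (chromosome 10, 35178914 to 35178947). The phosphodiesterase PDE4D stood at 1.73 on 1 fragment and the AMPK subunit PRKAA1 at 1.67 on 7.

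Of 23 m6A writers, erasers and readers, 5 had a 5′ UTR peak (21.7%) and 0 were called. The shares over all protein-coding genes were 8.04% and 0.369%. Those shares also count genes without a peak of any class, whereas 20 of these 23 genes had an exon peak. Whether the list differs from other genes with exon peaks was not tested. ZC3H13, a writer complex subunit, stood at 3.06 (1.28 to 6.88) on 4 fragments, and the demethylase FTO at 2.49 (1.09 to 5.25) on 5. The reader YTHDC2 stood at 1.92 on 1 fragment and the reader YTHDF3 at 1.84 on 2. The median of the highest folds of these 5 genes was 1.92, against 2.21 over all 1620 genes. It is the value of YTHDC2 on 1 fragment, so a difference cannot be read from it. Across the lists with a 5′ UTR peak this median ran from 1.73 to 2.78.

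Of 39 translation initiation factors, 5 had a 5′ UTR peak (12.8%), and 1 was called, EIF4G3. Over all protein-coding genes, 8.04% had a peak and 0.369% a called one. EIF2A stood at 2.65 (1.16 to 5.59) and the cap-binding protein EIF4E at 2.35 (0.974 to 6.45). EIF3K, a subunit of eIF3, stood at 1.63 (0.921 to 2.70) on 13 fragments. The median of the highest folds over these 5 genes was 2.35, against the same 2.21. Of 24 glycolysis genes, 3 had a peak (12.5%) and 1 was called, beside the same shares over all genes. The 3 were PFKFB3, the called one, PFKL at 1.89 on 1 fragment and ENO1 at 1.49 (0.983 to 2.17) on 25.

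Among liver cancer genes, 5 of 27 had a 5′ UTR peak (18.5%) and 2 were called, APC and TSC1. For this list and the next, the shares over all protein-coding genes were 8.04% with a peak and 0.369% with a called one. Those shares also count genes without a peak of any class, whereas 22 of the 27 had an exon peak. TSC1, a subunit of the complex that restrains mTORC1, stood at 3.78 (1.53 to 9.22) on 3 fragments. PBRM1, a chromatin remodelling subunit, stood at 2.21 on 4 fragments and was not called. Of 36 receptor kinase, MAPK and PI3K genes, 4 had a peak (11.1%) and RICTOR was called. PIK3CB stood at 3.58 (1.45 to 8.74) on 3 fragments, EGFR at 1.84 on 2 and BRAF at 1.70 on 1. The called members of all 9 lists were thus EIF4G3, PFKFB3, APC, TSC1 and RICTOR.

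The 580 5′ UTR peaks outside their assigned gene had values close to the others, with a median fold of 1.92 against 1.94 and a called share of 2.07% (1.07 to 3.59) against 2.99% (2.38 to 3.71). Of these 580, 416 lay upstream of the assigned start site, and 578 had their summit inside a protein-coding gene of RefSeq GRCh38.p14. For 87 of them this was the assigned gene as RefSeq draws it. No gene was named for these 580 peaks.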

How the data were processed

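RNA from 1 CRTC2 RIP and 1 input library of HCCLM3 cells was extracted with a Magna RIP kit and made into stranded total RNA libraries, per the labels' protocols. HISAT2 and MACS2 were used with hg38, per the submitters' processing notes; neither their versions and settings nor the annotation tool is given in the sources used here. Per the file headers, the authors deposited 1 peak list with a fold enrichment (a linear ratio), and −log10 p and −log10 q in 2 columns with spoiled headers, identified by place and values; positions and distances are other deposited values in bp. The list has no strand and no library totals, so antisense reads cannot be told apart and depth is known only at summits.

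Fragments and input level were solved from fold = (fragments + 1)/(input level + 1) and a Poisson tail p. This met both values within 0.001 for 100% of the 5′ UTR peaks; 133 (4.09%) allowed more than 1 number and the closest was taken, also for 7 of the 92 called peaks. On 19395 peaks simulated with the same formula 100% were recovered, which does not check the formula itself on the deposited values. Overlap with the assigned gene was at least 1 bp. All 1620 gene IDs matched the RefSeq table. Python 3.11.15, pandas 2.3.3, numpy 2.4.6 and SciPy 1.17.1 were used.

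The rule named the 15 peaks of highest fold on at least 5 fragments, the 15 of highest −log10 q, the 5 genes with most peaks, up to 4 members of each of 9 lists, CRTC2 and YTHDF2. Members, lists and rules were chosen with earlier results of these data known.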

Additional observations from a re-analysis of the deposited data

Results flagged for a closer look

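Signal in rows that the gene descriptions do not use was found in 2 places. Of the 393 rows annotated as 5′ UTR that the limits left out, 384 were wider than 10000 bp and 10 lay on contigs, 1 of them both. Among them 15 were at q of at most 0.05, with folds of 3.83 to 8.34 on 3 to 8 fragments. Of the 580 5′ UTR peaks outside the assigned gene, 12 were at q of at most 0.05, with folds of 3.78 to 7.42 on 3 to 11 fragments. The highest of these (chromosome 1, 235830286 to 235830425) held 7 RIP fragments against an input level of 0.0786.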

How the results depend on the processing

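Of 33 values under other settings, 17 stayed within the main value's 95% interval (or, for counts of genes, within a fixed ratio of it) and 16 moved. With peaks at q of at most 0.05, of fold at least 4, and on at least 5 fragments, in this order, the 5′ UTR share of the list was 3.89%, 3.52% and 2.86% (2.05% in all), the median fold 4.72, 4.71 and 2.07 (1.94), and the genes 77, 76 and 692 (1620). These limits select higher peaks by construction. The share inside the assigned gene was 87.0% and 86.3% at the limits on q and fold (82.2%). The called share was 4.37% on at least 5 fragments and 0.184% at −log10 q of at least 5 (2.83%). Median fragments were 5 at q of at most 0.05 (3). The within-gene difference of the highest fold, -0.36 on the log2 scale, was 0 for medians and -0.018 in genes with 1 peak of each kind. The values under a width limit of 1000 bp, with summits inside the gene and with no width or chromosome limit are among the 17; median fragments were 4 at that width limit (3). The absence of that limit, the alternatives for fragments and those for the within-gene difference were added after the data were seen. No paired analysis was possible because each group has 1 library, and no library could be left out.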

Other observations

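Among called 5′ UTR peaks that overlap the assigned gene, 6 outside the rule for named genes rested on at least 10 fragments and were chosen after their values were seen. MAX-AS1 stood at 5.29 on 11 fragments, MCRIP1 at 4.85 on 10 and the lysophospholipid acyltransferase gene AGPAT3 at 4.14 on 11. The nuclear receptor coactivator gene NCOA5 and TBC1D14, a regulator of autophagosome formation, both stood at 3.84 on 15 fragments against an input level of 3.17. The AAA ATPase gene VCP stood at 3.13 on 20 against 5.70. MAX-AS1 is named for an antisense RNA, and without strand its reads cannot be told apart from those of MAX.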
